A study of Mus musculus with 26 samples.

Results

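Calprotectin is a pair of small calcium-binding proteins, encoded by S100a8 and S100a9, that fills the cytosol of neutrophils and is also made by monocytes. Described here are 7 genes of neutrophils out of 12394 genes measured, chosen by name: S100a8 and S100a9, Csf3r for the receptor of granulocyte colony-stimulating factor, the granule genes Ngp, Camp, and Ltf, and Trem1 for a receptor that amplifies inflammatory signals. These genes were chosen with earlier results of these data known. Their transcripts were read in the left lung of male mice, 6 to 8 weeks old, on Affymetrix mouse expression arrays. Il10+/+ mice were C57BL/6 and Il10-/- mice carried a targeted deletion of the anti-inflammatory cytokine gene on a B6 background, all from 1 supplier. In each genotype 4 arrays were of filtered air (2 at 24 hr and 2 at 48 hr, pooled here because no array was of air at 72 hr), and O3 at 0.3 ppm was given for 24, 48, or 72 hr. The labels describe the arrays as biological replicates, 3 for each O3 group. Of the 26 arrays 25 were used, in 8 groups, so that 2 remained for Il10-/- mice at 24 hr of O3 and 3 in every other O3 group. Each of the 7 genes was read by 1 probe set that names no other gene. Values are on the log2 scale, and a gene passed the threshold when its p, adjusted over all genes, was under 0.05.

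Neutrophils form their proteins in steps as they mature in the bone marrow. Azurophil granule proteins such as myeloperoxidase are made first, specific granule proteins such as lactoferrin (Ltf), cathelicidin (Camp), and the neutrophilic granule protein (Ngp) next, and gelatinase granule proteins after that, and the transcripts of granule proteins mostly fade before the cell enters the blood. S100a8, S100a9, and Csf3r stay abundant as transcripts in mature neutrophils. Lactoferrin is also secreted by glands and epithelium of the airway.

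The left-out array, Il10-/- O3 24 hr replicate 2, had a highest Pearson's r with any other array of 0.849 across genes, against a lowest of 0.9645 among the other 25. The study's methods set aside 1 array of this group without naming it in their text. On this array Sftpc, the surfactant gene that marks alveolar type 2 cells, had a log2 value of 6.36, and markers of B cells and red blood cells were high, with list means of 10.42 and 9.59 against at most 8.03 and 6.36 on the others. Sftpc lay between 14.29 and 14.48 on the 25 arrays. Il10 itself had log2 values of 3.92 to 4.25 in Il10+/+ mice and 6.29 to 7.71 on the Il10-/- arrays in use. The probe set thus read higher in Il10-/- mice, in whose lungs the study detected no Il10 mRNA. The exception was the library labelled Il10-/- air 48 hr replicate 1, at 3.87. It lay near the Il10+/+ arrays and apart from the other Il10-/- arrays, and in this sense goes against its label. Which stretch of Il10 this probe set reads is not given in the sources used here, so it separates the arrays without testing the deletion.

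Start-site sequences are shown for the 2 calprotectin genes and Csf3r, which differed between genotypes, and for Ngp and Camp, which moved together without doing so. They are RefSeq promoters on GRCm38.p6, 250 bases before to 50 after the start, read on the strand of the gene, and all 7 genes had one. Capitals mark letters that match, on either strand, GAGGAA (PU.1, a myeloid transcription factor) or TTGCNNAA (C/EBP, the family that drives granulocyte genes). S100a8 lies at chr3:90669071-90670034 and S100a9 at chr3:90692630-90695721, 22595 bases apart. Csf3r lies at chr4:126023441-126044975, Camp at chr9:109847377-109849456, and Ngp at chr9:110419808-110423012. The printed stretches are chr3:90668821-90669120 (plus strand), chr3:90695672-90695971 (minus), chr4:126024409-126024708 (plus), chr9:109849407-109849706 (minus), and chr9:110419558-110419857 (plus), in the order S100a8, S100a9, Csf3r, Camp, Ngp. The stretch of Csf3r begins inside its locus, so its start lies within the gene and is not the first base of the locus.
S100a8: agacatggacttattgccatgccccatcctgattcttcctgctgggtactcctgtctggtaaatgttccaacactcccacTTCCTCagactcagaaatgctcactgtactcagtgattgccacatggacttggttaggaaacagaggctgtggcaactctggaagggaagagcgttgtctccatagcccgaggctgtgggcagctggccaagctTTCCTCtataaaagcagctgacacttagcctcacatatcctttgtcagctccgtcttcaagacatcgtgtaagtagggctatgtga
S100a9: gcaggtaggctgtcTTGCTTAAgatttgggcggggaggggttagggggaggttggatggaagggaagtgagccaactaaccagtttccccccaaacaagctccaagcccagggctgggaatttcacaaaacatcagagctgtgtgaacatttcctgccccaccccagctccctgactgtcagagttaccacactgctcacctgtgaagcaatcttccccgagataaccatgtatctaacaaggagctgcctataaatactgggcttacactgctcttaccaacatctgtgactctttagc
Csf3r: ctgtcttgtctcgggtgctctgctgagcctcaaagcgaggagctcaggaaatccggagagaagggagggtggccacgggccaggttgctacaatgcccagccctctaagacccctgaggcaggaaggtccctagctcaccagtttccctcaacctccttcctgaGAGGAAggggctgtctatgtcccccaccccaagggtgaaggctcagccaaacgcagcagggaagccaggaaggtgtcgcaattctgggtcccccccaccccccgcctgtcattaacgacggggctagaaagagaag
Camp: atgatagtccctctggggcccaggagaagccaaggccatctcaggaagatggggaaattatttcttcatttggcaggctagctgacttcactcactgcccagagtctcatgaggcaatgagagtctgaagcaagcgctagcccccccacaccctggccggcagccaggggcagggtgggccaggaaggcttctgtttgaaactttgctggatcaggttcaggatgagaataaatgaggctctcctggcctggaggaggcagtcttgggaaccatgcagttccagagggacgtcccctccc
Ngp: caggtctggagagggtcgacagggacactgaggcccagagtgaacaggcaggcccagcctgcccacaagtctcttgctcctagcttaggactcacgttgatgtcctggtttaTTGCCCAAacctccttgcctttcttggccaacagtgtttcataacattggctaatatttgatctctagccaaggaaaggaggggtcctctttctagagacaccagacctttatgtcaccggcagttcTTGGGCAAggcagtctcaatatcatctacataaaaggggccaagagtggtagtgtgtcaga
PU.1 letters stood in 4 of the 7 promoters (S100a8, with 2 matches, Csf3r, Ltf, and Trem1) against 28.3% of 32851 promoters of the same length. C/EBP letters stood in 3 (S100a9, Ngp, with 2 matches, and Ltf) against 10.8%. The letters TTCNNNGAA, bound by STAT factors, were found in Trem1 alone (8.3% of promoters), and TGANTCA, bound by AP-1, in none (7.81%). S100a8 and S100a9 shared no match of either kind although their values followed each other closely. Ltf, at chr9:111019292-111042766, completes a stretch of 1195390 bases with Camp and Ngp, and Trem1 lies at chr17:48232713-48246927. These matches are letters in a window and say nothing of binding.

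S100a8, S100a9, and Csf3r were higher in Il10-/- than in Il10+/+ mice under O3. S100a8 had a lowest, median, and highest log2 value of 8.17, 8.88, and 10.15 on the 9 O3 arrays of Il10+/+ mice and of 10.02, 10.90, and 11.41 on the 8 of Il10-/- mice. The highest Il10+/+ arrays, replicate 1 at 24 hr (10.15) and at 48 hr (10.09), reached just past the lowest Il10-/- array. For S100a9 the lowest, median, and highest values were 8.60, 9.38, and 10.62 in Il10+/+ and 10.65, 11.38, and 12.08 in Il10-/- mice. Csf3r, which receives the signal that drives neutrophil production and survival, lay at 6.70, 7.41, and 7.78 in Il10+/+ and at 8.14, 8.42, and 9.09 in Il10-/- mice. For both S100a9 and Csf3r every Il10-/- array stood above every Il10+/+ array, which held for 0.0807% of all genes.

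Over the 3 O3 times the difference between genotypes was 1.78 ± 0.32 (SE) on the log2 scale for S100a8, 3.44-fold, with a 95% interval of 1.13 to 2.44 (limma, adjusted p = 0.00661). The difference was 1.89 ± 0.33 for S100a9, 3.71-fold (interval 1.21 to 2.58, adjusted p = 0.00635), and 1.13 ± 0.19 for Csf3r, 2.19-fold (interval 0.73 to 1.53, adjusted p = 0.00503). These 3 of 7 genes passed as higher, where 0.266% of all genes did (0.637% in either direction, 79 genes, none of them another of the 7 genes). By rank of p among 12394 genes, Csf3r stood at 19, S100a9 at 21, and S100a8 at 24. Because the 7 genes were chosen with earlier results known, these ranks and shares of all genes are not an independent test. The calls of S100a9 and Csf3r held in all 34 alternatives that apply to this comparison, and that of S100a8 in all but 1, in which arrays were weighted by their fit (1.76, adjusted p = 0.0568). Without the library labelled Il10-/- air 48 hr replicate 1, differences were 1.78, 1.89, and 1.13 and all 3 passed, since that library is not of O3.

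**Figure D1:**
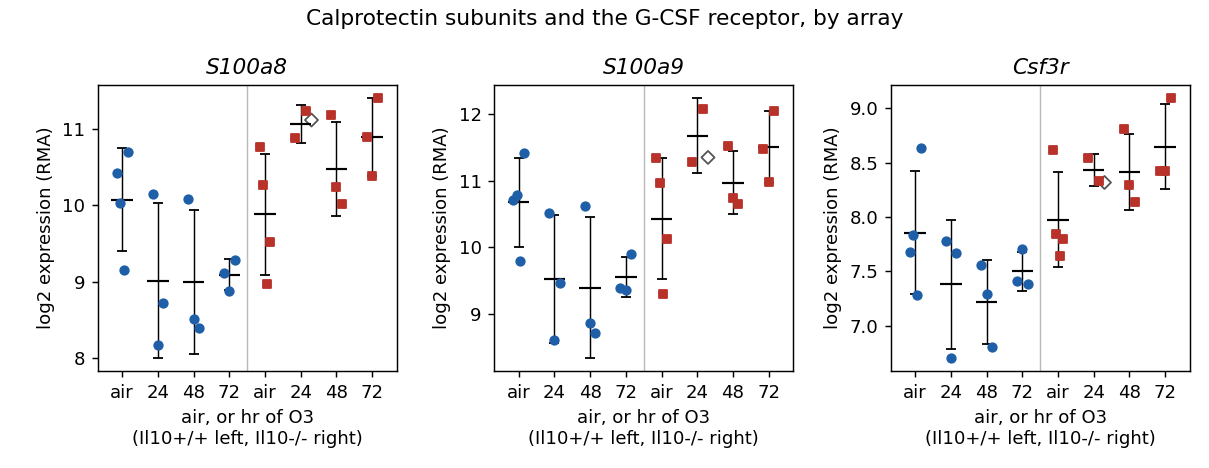
Log2 expression (RMA) of S100a8, S100a9, and Csf3r on each array, by hr of O3 or air, with Il10+/+ arrays as blue circles on the left and Il10-/- arrays as red squares on the right of each panel. Bars are the mean and SD of the group, and the open diamond is the left-out array. Under O3 the Il10+/+ arrays of S100a9 lie between 8.60 and 10.62 and the Il10-/- arrays between 10.65 and 12.08.

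The same order held at each time, with fewer arrays. At 24 hr of O3, S100a9 read 8.60, 9.46, and 10.52 on Il10+/+ arrays and 11.27 and 12.08 on Il10-/- arrays. S100a8, S100a9, Csf3r, and Trem1 (4 of the 7 genes) were higher on each Il10-/- array than on each Il10+/+ array then, as were 12.2% of all genes with these 2 against 3 arrays. At 48 hr S100a9 had values of 8.71, 8.85, and 10.62 in Il10+/+ and 10.65, 10.74, and 11.51 in Il10-/- mice, and S100a9 and Csf3r did not overlap (3.2% of genes). At 72 hr S100a9 values were 9.36, 9.38, and 9.89 in Il10+/+ and 10.97, 11.48, and 12.05 in Il10-/- mice, and the same 4 genes as at 24 hr were apart (3.99%). The gap between the lowest Il10-/- and the highest Il10+/+ array of S100a9 was 0.76 at 24 hr, 0.03 at 48 hr, and 1.08 at 72 hr. No single time passed the threshold for any of the 7 genes. S100a9 differed by 2.15 ± 0.61 (SE) at 24 hr, 1.57 ± 0.55 at 48 hr, and 1.96 ± 0.55 at 72 hr, with limma's adjusted p at 0.102, 1.000, and 1.000. The shares of all genes past the threshold were 0.662% at 24 hr, 0.00807% at 48 hr, and 0.0242% at 72 hr.

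In air the genotypes overlapped for all 3. S100a8 had air values of 9.15, 10.04, 10.42, and 10.70 in Il10+/+ and 8.97, 9.52, 10.27, and 10.77 in Il10-/- mice. Those of S100a9 were 9.79, 10.71, 10.78, and 11.41 in Il10+/+ and 9.30, 10.13, 10.96, and 11.33 in Il10-/- mice. Csf3r had 7.29, 7.68, 7.83, and 8.63 in Il10+/+ and 7.64, 7.80, 7.85, and 8.62 in Il10-/- mice. The air arrays of a genotype were thus spread widely for each gene. Il10-/- minus Il10+/+ was -0.19 (interval -1.14 to 0.75) for S100a8, -0.24 (-1.23 to 0.75) for S100a9, and 0.12 (-0.46 to 0.70) for Csf3r, with 0 of 7 genes and 0.00807% of all genes past the threshold. The lowest S100a8 and S100a9 values of Il10-/- air, 8.97 and 9.30, were both read on the library with the Il10 value against its label, and leaving it out made the differences 0.11 and 0.13, and 0.23 for Csf3r.

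Set against the mean of air, the arrays of O3 lay mostly on opposite sides in the 2 genotypes. In Il10+/+ mice S100a9 and Csf3r were below the mean of air on 9 of 9 O3 arrays and S100a8 on 7 of 9. In Il10-/- mice each of the 3 was above it on 8 of 8, or, with the library whose Il10 value goes against its label taken out of air, on 7 of 8 for S100a8, 6 of 8 for S100a9, and 8 of 8 for Csf3r. The share of all genes with such counts is not given here. Single O3 and air arrays overlapped in both genotypes for each of the 3 genes. S100a9 in Il10+/+ mice lay at 8.60 to 10.62 under O3 and at 9.79 to 11.41 in air. In Il10-/- mice it lay at 10.65 to 12.08 and at 9.30 to 11.33. The nearest S100a9 array of Il10+/+ mice was only 0.06 below the mean of air. The mean of the O3 times minus air in Il10+/+ mice was -1.04 ± 0.39 (SE) for S100a8, -1.18 ± 0.40 for S100a9, and -0.49 ± 0.24 for Csf3r, with limma's adjusted p at 0.154, 0.117, and 0.304. In Il10-/- mice these differences were 0.93 ± 0.40, 0.95 ± 0.41, and 0.52 ± 0.24, with adjusted p at 0.167, 0.180, and 0.215. None passed in either genotype, over the O3 times or at 24, 48, or 72 hr. The share of all genes past the threshold was 0.0484%, 3.71%, 3.15%, and 3.66% in Il10+/+ mice at 24, 48, and 72 hr and over them, and 2.09%, 6.33%, 5.87%, and 7.55% in Il10-/- mice. Without the library labelled Il10-/- air 48 hr replicate 1 those of Il10-/- mice were 0.63, 0.57, and 0.41. With arrays weighted by their fit, 3 of the 7 genes passed over the O3 times in Il10+/+ mice, where the share of all genes also went from 3.66% to 13.1%.

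The difference between the genotypes in this response was 1.98 ± 0.55 (SE) for S100a8, 2.14 ± 0.58 for S100a9, and 1.01 ± 0.34 for Csf3r over the O3 times, with 95% intervals of 0.83 to 3.12, 0.93 to 3.34, and 0.31 to 1.71. It did not pass the threshold for any (limma, adjusted p = 0.789, 0.757, and 0.994), and 0 of 12394 genes passed it, over the O3 times or at 24, 48, or 72 hr, or in the F test of all interaction terms, which is 0% in each. Taking out the air library whose Il10 value goes against its label made these 1.67, 1.76, and 0.90, with adjusted p at 1.000 for each, and 1 of all genes passed over the O3 times. At an unadjusted p under 0.05, 3 of the 7 genes and 4.07% of all genes passed over the O3 times. Because both contrasts lean on the same 4 air arrays of each genotype, a low or high air array shifts the response and its genotype difference together.

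**Figure D2:**
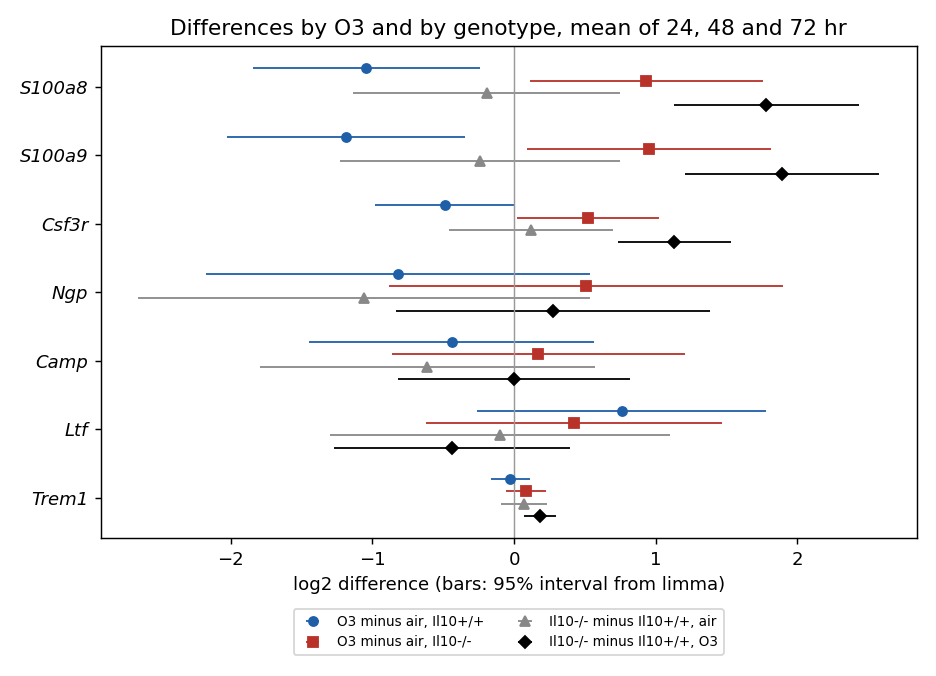
Log2 differences of the 7 genes with 95% intervals from limma, for O3 minus air in Il10+/+ (blue circles) and in Il10-/- mice (red squares) and for Il10-/- minus Il10+/+ in air (grey triangles) and over O3 (black diamonds), O3 being the mean of 24, 48, and 72 hr. For S100a9 the values are -1.18, 0.95, -0.24, and 1.89, and the interval over O3 lies above 0 for S100a8, S100a9, Csf3r, and Trem1, of which Trem1 missed the adjusted threshold.

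Across the 25 arrays S100a8 and S100a9 had a Pearson's r of 0.988 and a Spearman's rho of 0.972. After each group mean was subtracted r was 0.972, and without the 2 arrays farthest from the median it was 0.984. S100a8 and Csf3r had an r of 0.895 (rho 0.873, within groups 0.776) and S100a9 and Csf3r one of 0.891 (rho 0.905, within groups 0.773). Each r and rho over the 25 arrays had a permutation p of 1e-05, the smallest that 100000 permutations can give. After Benjamini-Hochberg adjustment over 21 pairs of the 7 genes it was 5.2e-05. Arrays were permuted without regard to group, so these p include the differences between groups, and the r within groups carry no p. An array high in 1 of the 3 was thus high in the others within a group as well as between groups. Of all genes, those with the highest r to S100a9 after S100a8 and Csf3r were Mmp9, the gelatinase of neutrophil granules (0.844), Pla2g7, the platelet-activating factor acetylhydrolase (0.831), and Itgam, the CD11b integrin of neutrophils and macrophages (0.814). The same 3 genes completed the 5 highest for S100a8, and Itgam, Mmp9, and Cd6, a surface protein of T cells, those for Csf3r. Within groups Mmp9 and S100a9 had an r of 0.628 and Itgam and S100a9 one of 0.738.

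Order of the group means was the same for S100a8 and S100a9: Il10-/- O3 24 hr, 72 hr, and 48 hr, then Il10+/+ air, Il10-/- air, and Il10+/+ O3 72 hr, 24 hr, and 48 hr. S100a9 means ran from 11.67 ± 0.57 (SD, n = 2) to 9.39 ± 1.06 (n = 3), with air at 10.67 ± 0.67 (n = 4) in Il10+/+ and 10.43 ± 0.91 (n = 4) in Il10-/- mice. S100a8 means ran from 11.07 ± 0.25 (n = 2) to 8.995 ± 0.95 (n = 3). Csf3r was highest at Il10-/- O3 72 hr, at 8.65 ± 0.39 (n = 3), and lowest at Il10+/+ O3 48 hr, at 7.22 ± 0.39 (n = 3). Neighbouring means were closer than the larger of their SDs in 7 of 7 pairs for S100a8 and S100a9 and in 6 of 7 for Csf3r, where Il10-/- O3 48 hr stood above Il10-/- air by slightly more.

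Ngp and Camp did not follow calprotectin in its difference between genotypes. Ngp, a cystatin-like protein of specific granules, had a lowest, median, and highest log2 value of 4.61, 5.05, and 8.07 on the O3 arrays of Il10+/+ mice and of 4.76, 5.15, and 7.96 on those of Il10-/- mice. In air Ngp read 5.00, 5.59, 6.19, and 8.56 in Il10+/+ and 4.87, 5.33, 5.43, and 5.48 in Il10-/- mice. Camp, the antimicrobial cathelicidin, read 4.35, 4.67, and 6.86 under O3 in Il10+/+ and 4.36, 4.54, and 6.83 in Il10-/- mice. A few arrays stood far above the rest for both genes, in either genotype and in air as well as in O3. The genotypes overlapped at each O3 time, and the difference over O3 was 0.27 (interval -0.84 to 1.38) for Ngp and -0.0016 (-0.82 to 0.82) for Camp, with limma's adjusted p at 0.891 and 1.000. Neither passed in any of the 18 comparisons. Several of their differences changed sign when 1 array was left out. The medians of both genes under O3 were low, and whether such values are above background was not tested.

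What the high arrays of Ngp and Camp shared was their replicate number. Among the arrays in use, replicate 1 was the highest of its labelled group in 9 of 10 groups for Ngp and in 9 of 10 for Camp. The count was 5 for S100a8 and Csf3r, 4 for S100a9 and Ltf, and 2 for Trem1. The share of all genes with such counts is not given here. In Il10-/- O3 24 hr the left-out replicate 2 stood above replicate 1, at 10.20 for Ngp and 9.26 for Camp. Ngp read 8.56 on Il10+/+ air 24 hr replicate 1, 8.07 on Il10+/+ O3 24 hr replicate 1, 7.18 on Il10+/+ O3 48 hr replicate 1, and 7.96 on Il10-/- O3 24 hr replicate 1. Camp read 7.24, 6.86, 6.26, and 6.83 on these 4 arrays and at most 5.45 on any other array in use. The labels do not say what a replicate number stands for, and its part in these values was not tested. The 2 genes had an r of 0.966 over 25 arrays (rho 0.83, permutation p = 1e-05, adjusted over 21 pairs 5.2e-05), of 0.932 without the 2 farthest arrays, and of 0.978 within groups. With S100a9, Ngp had an r of 0.258 (rho 0.186, permutation p = 0.216 and 0.374, adjusted over the pairs 0.349 and 0.462) and Camp one of 0.182 (rho 0.157, p = 0.388 and 0.454, adjusted 0.543 and 0.529). Within groups these r were 0.299 and 0.278. With S100a8 r was 0.341 for Ngp and 0.259 for Camp, and within groups 0.462 and 0.437. The r within groups were not tested. After each other, the genes most like Ngp and Camp over the 25 arrays were P3h4 (0.788 with Ngp) and Tubb4a (0.788 with Camp), neither of which is known as a neutrophil gene.

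**Figure D3:**
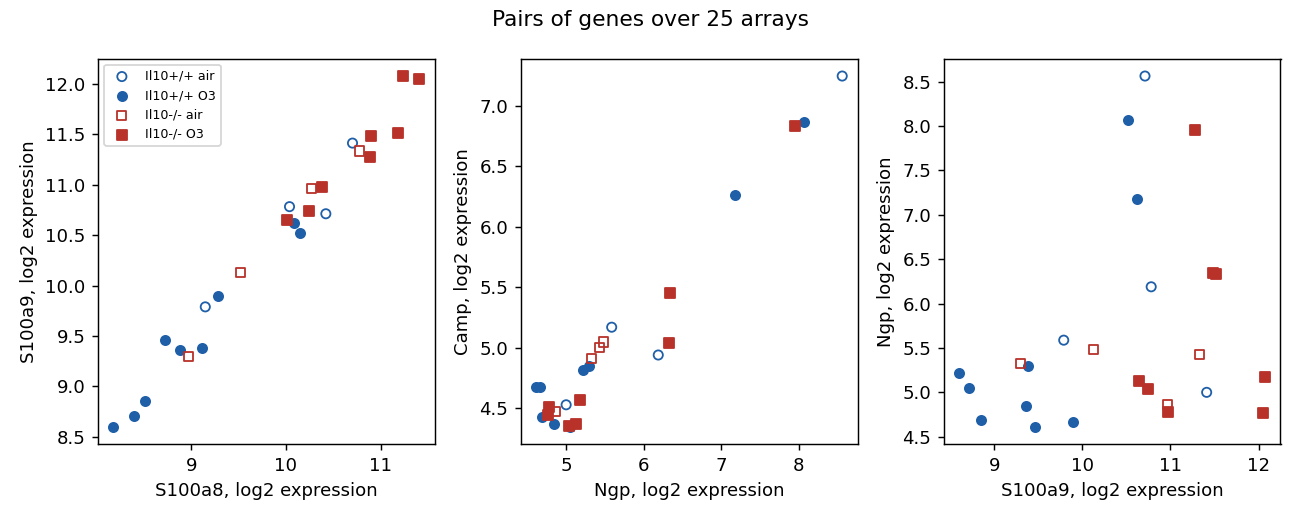
Log2 expression of S100a9 against S100a8, Camp against Ngp, and Ngp against S100a9 over 25 arrays, with open symbols for air, filled symbols for O3, blue circles for Il10+/+, and red squares for Il10-/-. The first pair lies along a line (r 0.988), the second is drawn out by 4 arrays with Ngp above 7 (r 0.966), and the third shows no such line (r 0.258).

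Ltf had the widest range of the 7 genes, 4.17 log2 units over the 25 arrays, from 6.37 on an Il10+/+ air array to 10.54 on an Il10+/+ O3 array. At 24 hr of O3 in Il10+/+ mice it read 7.93, 10.54, and 6.54. At 48 hr it read 8.20, 8.13, and 8.71, and at 72 hr 8.57, 8.97, and 8.92. In Il10-/- mice Ltf read 8.21 and 7.94 at 24 hr, 7.87, 8.58, and 8.35 at 48 hr, and 7.88, 7.24, and 8.41 at 72 hr. At 72 hr each Il10-/- array was below each Il10+/+ array, as were 5.45% of all genes, and the difference was -0.98 (interval -2.37 to 0.41, limma, adjusted p = 1.000). Over O3 the difference was -0.44 (interval -1.27 to 0.40, adjusted p = 0.742). O3 minus air was 0.76 for Ltf in Il10+/+ (interval -0.26 to 1.78) and 0.42 in Il10-/- mice (-0.62 to 1.47), or 0.49 without the library labelled Il10-/- air 48 hr replicate 1, none past the threshold. Its group means had 1 neighbouring pair farther apart than the larger SD, Il10+/+ O3 72 hr (8.82 ± 0.22, n = 3) above 48 hr (8.34 ± 0.32, n = 3). The gene most like Ltf was Muc5b, a mucin of airway glands and secretory cells (0.826, within groups 0.881), followed by Reg3g (0.785), an antimicrobial lectin of epithelium, Prom1 (0.759), Agr2 (0.758), which folds mucins, and Meig1 (0.755). No gene of this set is a known neutrophil granule gene.

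Trem1 spanned 0.47 log2 units, from 3.99 to 4.46, a range narrower than that of all but 12.9% of genes. It read 3.99, 4.11, and 4.16 at 24 hr of O3 in Il10+/+ and 4.35 and 4.37 in Il10-/- mice. At 72 hr it read 4.07, 4.11, and 4.18 in Il10+/+ and 4.31, 4.35, and 4.46 in Il10-/- mice, and at 48 hr the genotypes overlapped. Over O3 Trem1 differed by 0.18 ± 0.05 (SE), 1.13-fold (interval 0.07 to 0.29), and did not pass (limma, adjusted p = 0.125). With S100a9 it had an r of 0.600 (rho 0.669, permutation p = 0.00177 and 0.00042, adjusted over 21 pairs 0.00743 and 0.00176), of 0.714 without the 2 farthest arrays, and of 0.348 within groups. With S100a8 r was 0.582 and with Csf3r 0.498. The r over all arrays include the differences between groups, and the r within groups was not tested. A background level for single probe sets was not used here, and whether these low values are above background was not tested.

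**Figure D4:**
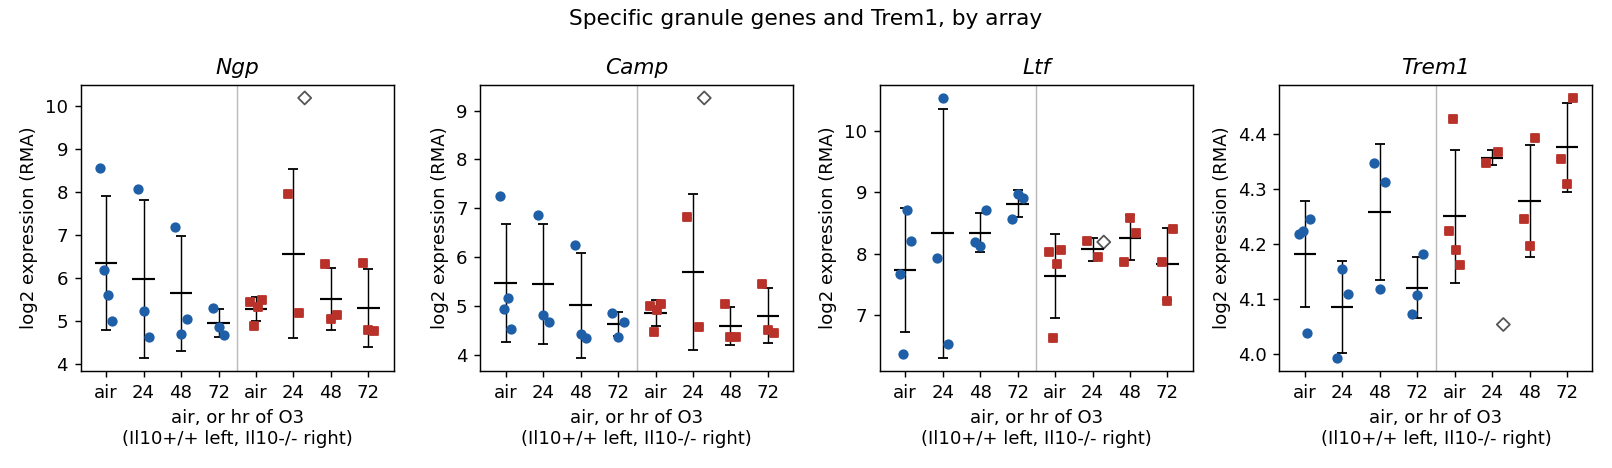
Log2 expression (RMA) of Ngp, Camp, Ltf, and Trem1 on each array, drawn as for calprotectin, with the mean and SD of each group and the left-out array as an open diamond. Ngp and Camp each have 1 high array in several groups, Ltf spans 6.54 to 10.54 among Il10+/+ arrays at 24 hr, and Trem1 on the 25 arrays spans only 3.99 to 4.46.

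Lists of genes around the 7 were counted over O3 between the genotypes. The surface receptors include Csf3r and Trem1, and the specific granule genes include Ngp, Camp, and Ltf. The lists, too, were chosen with earlier results of these data known. Of 13 measured neutrophil surface receptors 4 were higher in Il10-/- mice, where 0.266% of all genes were. Besides Csf3r these were Clec4d, a receptor for fungal and mycobacterial molecules (1.00 ± 0.16 SE, limma, adjusted p = 0.00376), Il1r2, the decoy receptor of interleukin-1 (0.81 ± 0.10), and Fcgr3, an Fc receptor for immunoglobulin G (0.38 ± 0.06). All 13 had a difference above 0, with a median of 0.33 against 0.00 over all genes. Among 10 specific granule genes Mmp8, the neutrophil collagenase, was higher (0.82 ± 0.19, adjusted p = 0.0483), and the median was 0.22. Of 5 gelatinase granule genes Mmp9 was higher (0.81 ± 0.15, adjusted p = 0.0111), and the median was 0.16. None of 5 azurophil granule genes passed, and their differences were small, from 0.08 for Mpo to 0.11 for Prtn3. The group means of this list were low, from 4.37 to 4.60, and whether they are above background was not tested. In bulk tissue more cells of a type and more RNA per cell cannot be told apart.

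Lists of what acts on neutrophils or on calprotectin held 44 genes, of which 0 passed between genotypes over O3, where 0.637% of all genes did. These were 11 recruitment genes (median 0.05), 8 factors of granulopoiesis (0.04), 8 receptors and signalling genes of calprotectin (0.05), 6 genes of TREM1 ligand and signalling (0.08), and 11 other S100 genes (0.03). At a share of 0.637%, a count of 0 of 44 does not set these lists apart from all genes. Cxcl1, a chemokine that draws neutrophils, had a difference of 0.57 ± 0.17 (limma, adjusted p = 0.119). S100a4, S100a6, and S100a14, the S100 genes that passed against air in Il10-/- mice, differed between genotypes by 0.24, 0.13, and 0.23 and did not pass.

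**Figure D5:**
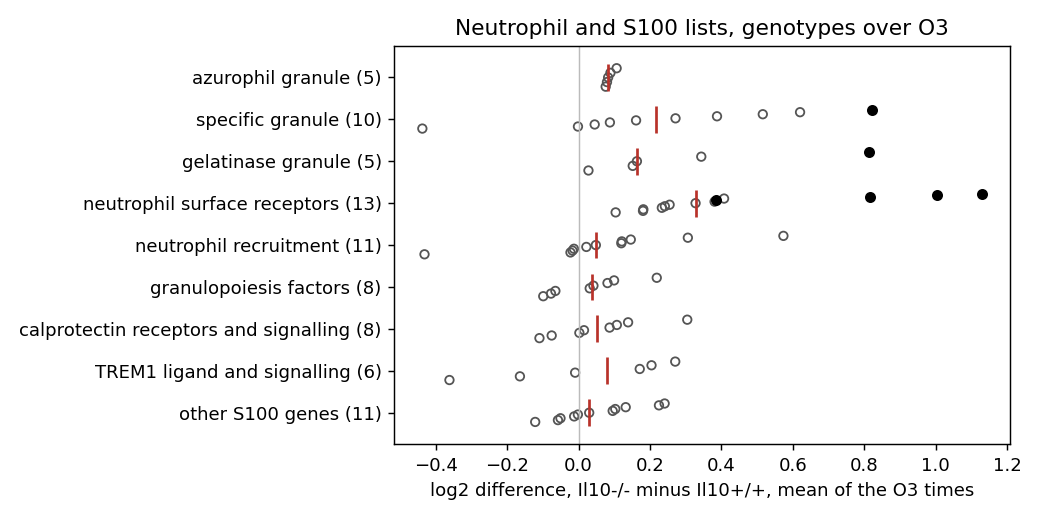
Log2 difference, Il10-/- minus Il10+/+ over the mean of the O3 times, of each measured gene in 9 lists of neutrophil and S100 genes, with the number of genes in brackets. Filled points passed the adjusted threshold, open points did not, and the red line is the list's median, 0.33 for surface receptors and 0.08 for azurophil granule genes.

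Against air, 18 of the 77 measured genes of these lists passed in Il10-/- mice, where 7.55% of all genes did, and 8 of 77 in Il10+/+ mice, where 3.66% did. The difference between the genotypes in these counts was not tested. Without the library labelled Il10-/- air 48 hr replicate 1, 11 of the 18 passed, and Clec4d, Fpr2, Cd177, Cxcl1, Cxcl5, Icam1, and Trem2 did not, while the share of all genes went from 7.55% to 4.04%. Of the 13 surface receptors 5 rose with O3 in Il10-/- mice, Clec4d by 0.92 ± 0.21, Il1r2 by 0.89 ± 0.12, Clec4e by 0.80 ± 0.16, Fpr2 by 0.50 ± 0.15, and Fcgr3 by 0.43 ± 0.08, with a list median of 0.43. None of them passed in Il10+/+ mice, where the median was -0.05. Among specific granule genes Lcn2, an iron-siderophore binder also made by epithelium, rose in both genotypes, by 1.05 ± 0.16 in Il10+/+ and 1.78 ± 0.17 in Il10-/- mice, and Mmp8 (1.13 ± 0.23) and Cd177 (0.99 ± 0.25) rose in Il10-/- mice. Haptoglobin (Hp) rose by 0.31 ± 0.07 and 0.34 ± 0.08. Cd14, a co-receptor of TLR4, rose by 0.99 ± 0.11 in Il10+/+ and 1.17 ± 0.11 in Il10-/- mice, and Myd88, the adaptor of that receptor, by 0.43 ± 0.09 and 0.45 ± 0.09. Of the recruitment genes Icam1 and Cxcl2 rose in Il10+/+ mice and Cxcl1, Cxcl5, and Icam1 in Il10-/- mice. S100a14, an epithelial S100 gene, rose by 1.46 ± 0.20 and 1.63 ± 0.21, and S100a6 rose by 0.43 ± 0.10 and 0.58 ± 0.11. S100a4, found in macrophages and fibroblasts, rose by 0.86 ± 0.15 in Il10-/- mice. Trem2, a macrophage receptor, also rose there by 0.29 ± 0.08. Each of these values passed the adjusted threshold of limma. Markers of other cells moved in the same comparisons. Of 9 markers of dividing cells 8 rose in each genotype, with medians of 1.32 in Il10+/+ and 1.43 in Il10-/- mice. The endothelial markers Tie1, Pecam1, and Cldn5 fell in Il10-/- mice, by 0.60, 0.41, and 0.24, and the list medians were -0.24 in Il10+/+ and -0.30 in Il10-/- mice. The alveolar type 1 marker Cav1 fell there by 0.29, with a list median of -0.16. Marco of alveolar macrophages and Sftpd of alveolar type 2 cells rose there by 0.96 and 0.32, but their lists did not rise as wholes. The medians of these lists were 0.009 (5 of 10 markers above 0) and -0.007 (4 of 9). None of 7 B cell markers passed, with medians of -0.59 and -0.41. The part of these markers in the changes of the lists was not tested.

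Markers of other cells were read beside the calprotectin result. None of 11 marker lists held a gene past the threshold between genotypes over O3, where 0.637% of all genes passed. These lists had 5 to 10 measured genes each, so at that share a count of 0 does not show that cell types were alike. Of 10 monocyte and interstitial macrophage markers, cells that also carry S100a8 and S100a9, 9 had a difference above 0, with a median of 0.17. The mean of that list per array was 7.03 to 7.54 under O3 in Il10+/+ and 7.31 to 7.87 in Il10-/- mice. The 10 alveolar macrophage markers had a median of -0.13 with 3 above 0, and the 8 endothelial markers one of -0.12 with 0 above 0. Of 7 B cell markers 0 were above 0, with a median of -0.70, and the list's mean was 6.42 to 7.65 under O3 in Il10+/+ and 5.91 to 7.29 in Il10-/- mice. In air the mean of the B cell list was 5.96 to 7.41 in Il10-/- and 7.51 to 8.03 in Il10+/+ mice. The part of these shifts in the calprotectin result was not tested.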

How the data were processed

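RNA of left lungs was hybridized to 26 Affymetrix mouse arrays. The authors made the deposited log2 values with Robust Multichip Average in RMAExpress (version not given in the sources used here), which quantile normalizes across arrays, and these were used as deposited. Array medians were 6.54 to 6.68. Of 22690 probe sets 20393 had 1 symbol, 691 several, and 1606 none listed, and each of 12394 genes was represented by its probe set of highest mean. Precision is limited by how few arrays each group has, and detection of single probe sets was not assessed. All genes were fitted together with limma 3.58.1 (R 4.3.3), with 1 mean for each of 8 groups over 25 arrays, 1 air group per genotype, and p-values adjusted by Benjamini-Hochberg over all genes (threshold 0.05). The fit was tested on simulated data. Permutation tests of correlations were two-sided and shuffled the 25 arrays without regard to group. Genes were named as the 7 members, up to 4 genes of each list past the threshold with the largest change, the 5 genes most like each member, and label checks. Other list genes were named as well, among them further surface receptors that passed and Mpo and Prtn3, which did not. Members and lists were chosen with earlier results of these data known. Alternatives were all 26 arrays, a replicate block, the arrays compared only, air of the same time, array weights, a letter c that ends the source names of 5 arrays (4 of them Il10-/-, 3 of these air), median centring, mean of probe sets, the genes of lowest mean left out, an unmoderated model, and each array left out. Plots used Python 3.11.15 with matplotlib 3.10.9.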

Additional observations from a re-analysis of the deposited data

Results flagged for a closer look

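On the left-out array, Il10-/- O3 24 hr replicate 2, S100a8 (11.12), S100a9 (11.35), Ngp (10.20), Camp (9.26), and Ltf (8.19) had log2 values above all 4 Il10-/- air arrays. Ngp and Camp were higher there than on any of the 25 arrays in use, whose highest values were 8.56 and 7.24. This is 1 array outside the comparisons, and it carries no test. Among the 4 Il10-/- air arrays, Ltf was low on 24 hr replicate 2, at 6.63, far from the other 3. Among the 4 Il10+/+ air arrays, Trem1 was low on 48 hr replicate 1, at 4.04. Chance alone sets an array apart in this way in about 1 of 20 groups.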

How the results depend on the processing

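With array weights, 2 of the 7 genes passed at 48 hr and 2 at 72 hr of O3 against air in Il10+/+ mice and 3 over the O3 times, where 0 passed as reported, and 2058, 1613, and 1628 of all 12394 genes passed, where 460, 391, and 454 did. Leaving out each array in turn gave 0 to 1 for that last count, and the 1 came without Il10+/+ O3 48 hr replicate 1. The other 15 of 18 counts stayed within the limit of 1.5 times in every alternative that applies to them, 33 to 35 per comparison, 25 of which left out 1 array. Of 4054 recomputed values of single genes, 3946 kept their sign and side of the threshold, 8 passed newly, 1 no longer passed (S100a8 over O3 between genotypes), and 99 changed sign (75 of them with 1 array left out), all 99 with neither value past the threshold. The cause was not tested. Arrays of 1 replicate number were taken as unpaired, since the labels do not say what a number marks and the r of their deviations from the group means was not above 0.1 in every pair (median 0.104, from -0.305 to 0.461, against a median of -0.056 for other numbers). As a hint from the data that numbers may be shared, 20 of 25 arrays were closest to their own number. Paired arrays need not all have an r above 0.1, so this rule does not decide whether arrays are paired. With the replicate block the differences over O3 of S100a8, S100a9, and Csf3r were 1.75, 1.87, and 1.13, all past the threshold, and 105 genes passed in all. Counts over all genes moved more. Between genotypes over O3, 79 genes passed as reported, 23 with all 26 arrays, 45 in the unmoderated model, and 35 to 857 with 1 array left out, the highest being 857 and 373 without Il10-/- O3 24 hr replicate 3 or 1, where 1 array of that group is left. Against air over the O3 times, 454 passed in Il10+/+ mice as reported, 21 with all 26 arrays, 878 with the arrays compared only, 1628 with array weights, and 227 to 824 with 1 array left out. In Il10-/- mice 936 passed as reported, 302 with all 26 arrays, 411 with the arrays compared only, and 501 to 1975 with 1 array left out.

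Over the fits that leave out 1 array, values whose sign turned had these ranges. S100a8 spanned, for Il10-/- minus Il10+/+, -0.50 to 0.11 in air. S100a9 spanned, for Il10-/- minus Il10+/+, -0.54 to 0.13 in air. Csf3r spanned, for Il10-/- minus Il10+/+, -0.094 to 0.38 in air. Ngp spanned, for O3 minus air in Il10+/+ mice, -1.42 to 0.37 at 24 hr and -1.47 to 0.044 at 48 hr. Ngp spanned, for O3 minus air in Il10-/- mice, -0.10 to 2.68 at 24 hr, -0.20 to 0.45 at 48 hr, and -0.50 to 0.29 at 72 hr. Ngp spanned, for Il10-/- minus Il10+/+, -0.79 to 1.99 at 24 hr, -0.62 to 0.63 at 48 hr, -0.17 to 0.62 at 72 hr, and -0.19 to 0.74 over O3. Camp spanned, for O3 minus air in Il10+/+ mice, -0.72 to 0.57 at 24 hr, -1.08 to 0.13 at 48 hr, and -0.75 to 0.15 over O3. Camp spanned, for O3 minus air in Il10-/- mice, -0.29 to 1.97 at 24 hr, -0.38 to 0.12 at 72 hr, and -0.21 to 0.55 over O3. Camp spanned, for Il10-/- minus Il10+/+, -0.89 to 1.38 at 24 hr, -0.75 to 0.20 at 48 hr, -0.15 to 0.35 at 72 hr, and -0.38 to 0.38 over O3. Camp spanned, for the genotype difference in response, -0.28 to 1.99 at 24 hr and -0.40 to 0.81 at 48 hr. Ltf spanned, for O3 minus air in Il10+/+ mice, -0.51 to 1.49 at 24 hr. Ltf spanned, for O3 minus air in Il10-/- mice, -0.14 to 0.50 at 72 hr. Ltf spanned, for Il10-/- minus Il10+/+, -1.15 to 0.84 at 24 hr, -0.24 to 0.12 at 48 hr, and -0.56 to 0.24 in air. Ltf spanned, for the genotype difference in response, -1.05 to 0.94 at 24 hr, -0.31 to 0.48 at 48 hr, and -0.68 to 0.12 over O3. Trem1 spanned, for O3 minus air in Il10-/- mice, -0.029 to 0.086 at 48 hr. Trem1 spanned, for Il10-/- minus Il10+/+, -0.051 to 0.063 at 48 hr. Trem1 spanned, for the genotype difference in response, -0.12 to 0.0093 at 48 hr. With all 26 arrays the values that turned sign were 0.39 for Camp (Il10-/- minus Il10+/+ over O3). With the replicate block the values that turned sign were 0.23 for Camp (O3 minus air in Il10+/+ at 24 hr), -0.0023 for Trem1 (O3 minus air in Il10-/- at 48 hr), and 0.19 for Camp (O3 minus air in Il10-/- at 72 hr). Against air of the same exposure time the values that turned sign were 0.16 for Camp (O3 minus air in Il10+/+ at 48 hr), -0.12 for Ltf (O3 minus air in Il10+/+ at 48 hr), 0.34 for Ngp (O3 minus air in Il10+/+ at 48 hr), -0.55 for Camp (the genotype difference in response at 48 hr), and -0.25 for Ngp (the genotype difference in response at 48 hr). With array weights the values that turned sign were -0.0034 for Trem1 (O3 minus air in Il10+/+ at 48 hr), -0.055 for Ngp (O3 minus air in Il10-/- at 48 hr), 0.033 for Camp (O3 minus air in Il10-/- at 72 hr), 0.20 for Ltf (Il10-/- minus Il10+/+ in air), 0.17 for Ltf (Il10-/- minus Il10+/+ at 48 hr), 0.031 for Camp (Il10-/- minus Il10+/+ over O3), -0.030 for Ltf (the genotype difference in response at 48 hr), and 0.040 for Trem1 (the genotype difference in response at 48 hr). With the letter as a covariate the values that turned sign were 0.34 for Camp (O3 minus air in Il10-/- at 48 hr), -0.021 for Trem1 (O3 minus air in Il10-/- at 48 hr), 0.55 for Camp (O3 minus air in Il10-/- at 72 hr), -0.16 for Camp (Il10-/- minus Il10+/+ at 24 hr), 0.0052 for Ltf (the genotype difference in response at 24 hr), and 0.11 for Ltf (the genotype difference in response over O3). With median centring the values that turned sign were 0.045 for Camp (Il10-/- minus Il10+/+ over O3).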
